A study of Mus musculus with 9 samples.

Results

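The miRNAs described here are 6 mature miRNAs that are known from white blood cells: miR-142-3p, miR-142-5p, miR-150-5p, miR-155-5p, miR-342-3p and miR-342-5p. They were taken by name from the 1251 mature miRNAs in the deposited small RNA sequencing table, with earlier results of these data known. The libraries came from adipose tissue of male C57BL/6J mice that started a high fat diet (HFD) at 5 to 6 weeks of age, stayed on it for 11 weeks and were fasted for 4 hours before tissue was taken. The diet drew 45% of its energy from fat, 20% from protein and 35% from carbohydrate. Whole pieces of 3 depots were sequenced, with 3 libraries each: interscapular brown adipose tissue (BAT, libraries 12, 15 and 20), inguinal subcutaneous adipose tissue (SAT, libraries 14, 19 and 20) and epididymal visceral adipose tissue (VAT, libraries 14, 17 and 20). All libraries shared this diet, and no genotype or treatment set them apart. No library of mice on the low fat diet entered these comparisons, so the values compare depots within the HFD. The authors speak of biological replicates, and the labels number the libraries without saying which mouse each came from. The p-values measure the spread between these libraries.

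Leukocytes live in adipose tissue among the adipocytes, and macrophages and lymphocytes are known to accumulate in visceral fat of obese mice. miR-142 is made in nearly the whole blood cell lineage and serves as a general leukocyte miRNA, whereas miR-150 is most abundant in mature B, T and NK cells, where it is known to restrain the transcription factor Myb. miR-155 is induced when B cells, T cells and macrophages are activated, and miR-342 is made from an intron of Evl, a regulator of actin filaments that is expressed in lymphoid and myeloid cells. The inguinal fat pad surrounds a lymph node, and the sources used here do not say whether it was removed before RNA was extracted. A miRNA finds its targets mainly by base pairing through its seed, the stretch from base 2 to base 8.

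The mature sequences are shown because the seeds tell the arms apart and because both arms of each hairpin were measured. RefSeq (GRCm38.p6) entries matched 5 of the 6 members, under the names miR-142a-3p and miR-142a-5p for the miR-142 arms. They are written 5′ to 3′ with the seed in capitals, and miR-150-5p is given by name.
miR-142-3p: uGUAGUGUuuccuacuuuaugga
miR-142-5p: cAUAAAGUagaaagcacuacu
miR-155-5p: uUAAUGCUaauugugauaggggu
miR-342-3p: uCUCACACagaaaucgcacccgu
miR-342-5p: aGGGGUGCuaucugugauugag
miR-150-3p: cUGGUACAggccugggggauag
The last of these, miR-150-3p, is the other arm of the miR-150 hairpin and is used further on. The seeds of the 5 printed members all differ, and 0 other mature mouse miRNAs of the RefSeq table carry any of them, so no other miRNA of that table belongs to the same seed family.

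The hairpins of miR-142 and miR-342 are shown because both of their arms are members, with levels that differed widely. Capitals mark the 5p and 3p mature arms, in that order.
Mir142: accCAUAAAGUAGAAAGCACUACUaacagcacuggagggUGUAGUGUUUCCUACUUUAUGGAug
Mir342: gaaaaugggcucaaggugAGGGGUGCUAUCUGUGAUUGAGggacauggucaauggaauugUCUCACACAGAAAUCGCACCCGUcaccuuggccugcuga
In GRCm38, Mir142 lies at chr11:87756864-87756927 on the plus strand, within an intron of the lincRNA gene Mir142hg. The annotation also has Mir142b on the minus strand across the same bases, and the reverse complement of its mature product lies within miR-142-3p, but the table has 0 entries for it. Mir342 is at chr12:108658620-108658718 on the plus strand, within an intron of Evl. Mir150 is at chr7:45121757-45121821 on the plus strand and overlaps no other annotated gene, and Mir155 is at chr16:84714140-84714204 on the plus strand, in an exon of the lincRNA gene Mir155hg.

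All levels are the log2 normalized values that the authors deposited. The lowest value of the table is 3.32, or 10 before the logarithm, and a miRNA at that value was not detected above it. Of the 1251 miRNAs, 839 were at the lowest value in all 9 libraries, and the number above it was 255 to 273 in BAT, 240 to 285 in SAT and 323 to 349 in VAT. Read totals are not in the table, so the depth behind a value is unknown. Tests covered the 343 miRNAs that rose above this value in 3 or more libraries of any depot. Some libraries stood apart in marker miRNAs of other tissues: the summed unlogged level of 5 skeletal muscle miRNAs was 151562 in BAT 15, 420524 in BAT 20 and 151385 in VAT 20 against 912 to 6164 in the other libraries, and that of 6 epithelial miRNAs was 20867 in SAT 14 against 0 to 1188 elsewhere. The results below are therefore also given without single libraries where that changes them.

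miR-142-5p, the more abundant arm of the pan-leukocyte hairpin, had the largest measured difference between VAT and BAT among the members. Its log2 level was 6.89, 4.66 and 6.10 in the BAT libraries (5.88 ± 1.13, SD, n = 3). In SAT it was 7.87 in library 14, 7.85 in library 19 and 11.88 in library 20 (9.20 ± 2.32, SD, n = 3). In VAT it was 9.76, 10.13 and 9.80 (9.90 ± 0.20, SD, n = 3). Each VAT and each SAT library was above all BAT libraries, and SAT 20 was the highest of the 9 while the other SAT libraries were below all VAT libraries. VAT exceeded BAT by 4.01 on the log2 scale (95% CI 2.64 to 5.39, adjusted p = 0.00138 by limma), which is 16.2-fold. Among the miRNAs of a library ordered by level, miR-142-5p was at place 186 to 251 in BAT and 89 to 96 in VAT.

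miR-142-3p, the other arm, was at the lowest value in all 3 BAT libraries and in SAT 14 and SAT 19. It was detected at a log2 level of 7.5 in SAT 20 and at 4.46, 4.97 and 4.02 in VAT (4.48 ± 0.48, SD, n = 3). VAT exceeded BAT by 1.16 (95% CI 0.45 to 1.87, adjusted p = 0.0138 by limma). Since BAT was at the lowest value throughout, this is a lower bound on the scale of the deposited values, of 2.23-fold. The BAT SD of 0 that entered this test comes from the lowest value. In the VAT libraries miR-142-3p was at places 265, 242 and 282 by level, while the BAT libraries had 255 to 273 miRNAs above the lowest value. With an unknown depth, the bound need not hold for the levels in the tissue. miR-142-3p was tested only through the libraries in which it is high, SAT 20 and the 3 VAT libraries. Its adjusted p was 0.336 when all 9 libraries were fitted together.

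miR-150-5p, known from lymphocytes, was the most abundant member in every library, and it was lower in VAT than in BAT, whereas the other tested members were higher. Its log2 level was 14.75, 14.52 and 14.31 in BAT (14.52 ± 0.22, SD, n = 3). It was 13.56 in SAT 14, 13.84 in SAT 19 and 16.72 in SAT 20 (14.71 ± 1.75, SD, n = 3). In VAT it was 12.74, 14.11 and 12.50 (13.12 ± 0.87, SD, n = 3). The BAT libraries lay close together, above all 3 VAT libraries and above SAT 14 and SAT 19, while SAT 20 was above all others. By level, miR-150-5p was at places 19 to 22 in the BAT libraries, where miR-142-5p was at places 186 to 251. The cell source of miR-150-5p was not tested. VAT was lower than BAT by a log2 difference of -1.41 (95% CI -2.52 to -0.29, adjusted p = 0.0358 by limma), so BAT was 2.65-fold higher. The call held in 5 of 14 alternative settings, with adjusted p from 0.00412 to 0.288, and it was lost, at 0.159, in the fit of all 9 libraries. It was also lost when any BAT or VAT library other than VAT 17 was left out, with adjusted p from 0.0514 to 0.120 by limma. miR-150-3p, the far less abundant arm of the same hairpin, was above the lowest value in BAT 12, BAT 15, SAT 20 and VAT 17, with log2 levels of 6.08, 5.61, 6.72 and 4.57, and passed the test in 0 of the 3 comparisons.

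miR-155-5p, the activation-induced miRNA, was at the lowest value in all 9 libraries, and so was its other arm miR-155-3p. Neither was tested, and with an unknown depth no upper limit can be put on their levels beyond the lowest value itself.

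miR-342-3p, from the Evl intron, was higher in VAT than in BAT. Its log2 level was 9.93, 10.29 and 9.21 in BAT (9.81 ± 0.55, SD, n = 3). In SAT it was 10.65, 10.29 and 11.65 (10.86 ± 0.71, SD, n = 3), with SAT 20 the highest. In VAT it was 11.65, 11.88 and 11.38 (11.64 ± 0.25, SD, n = 3). VAT and BAT did not overlap, and SAT touched both, since SAT 19 equalled BAT 15 and SAT 20 equalled VAT 14. By level, miR-342-3p was at place 86 in SAT 19 and BAT 15, and at place 59 in SAT 20 and VAT 14. Libraries hold equal values at equal ranks, so these equal values need not mean equal levels. VAT exceeded BAT by 1.83 (95% CI 1.0 to 2.66, adjusted p = 0.00406 by limma), or 3.55-fold.

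miR-342-5p, the minor arm of that hairpin, was detected in every VAT library and in only 1 library each of BAT and SAT. Its log2 level was 6.48, 6.74 and 5.85 in VAT (6.35 ± 0.46, SD, n = 3), 5.76 in BAT 20 and 4.64 in SAT 20. In the other BAT and SAT libraries it was at the lowest value. It was tested only through the VAT libraries, in which it is high. All VAT libraries were above all others, by a narrow margin over BAT 20. VAT exceeded BAT by 2.22 (95% CI 0.49 to 3.95, adjusted p = 0.0350 by limma) and exceeded SAT by 2.59 (95% CI 1.39 to 3.79, adjusted p = 0.0290 by limma). Each call held in 5 of 14 alternative settings, with adjusted p of 0.001 to 0.323 for VAT/BAT and 0.0222 to 0.209 for VAT/SAT. The VAT/BAT call was lost when any BAT or VAT library other than BAT 20 was left out.

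**Figure D1:**
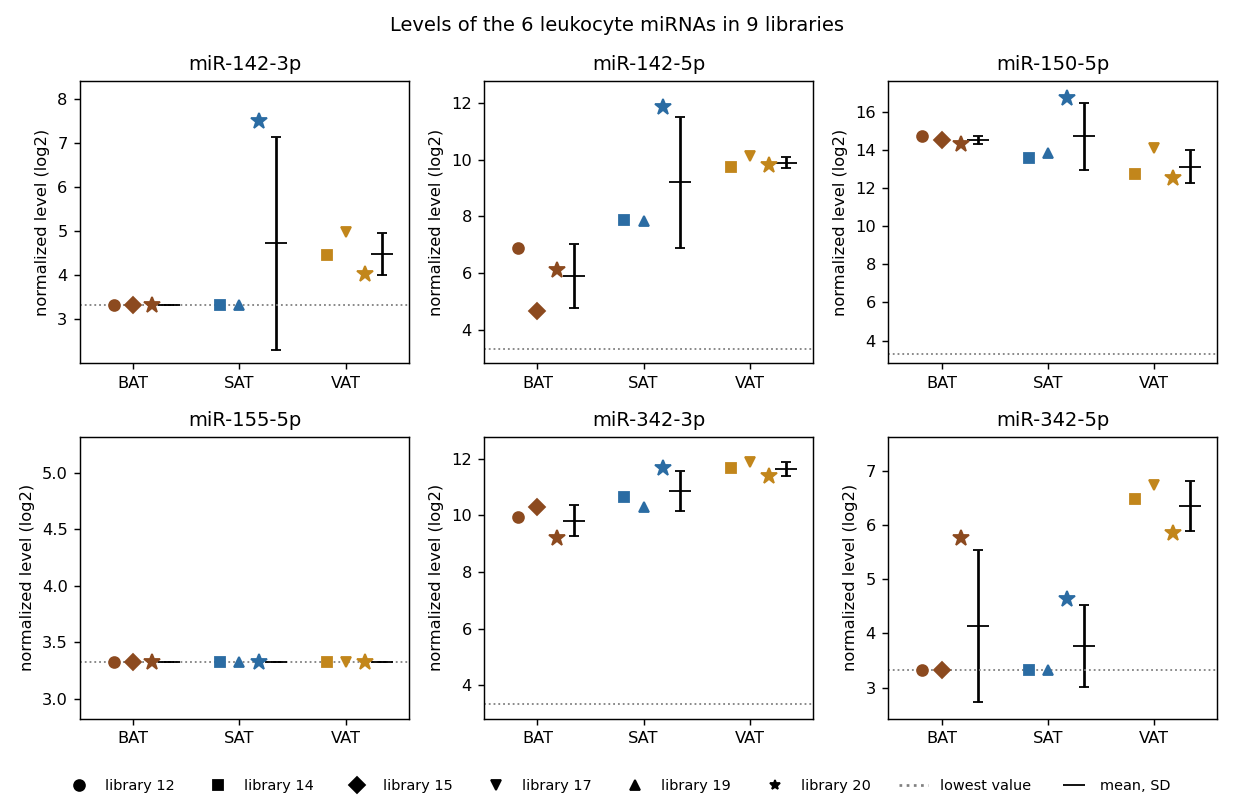
Log2 normalized level (vertical axes) of the 6 members in each library of BAT, SAT and VAT, with a symbol per library, bars for the mean ± SD of 3 libraries and a dotted line at the lowest value of 3.32. SAT 20 is the highest SAT library for each member except miR-155-5p, which is at the lowest value throughout, miR-142-5p and miR-342-3p are higher in all VAT than in all BAT libraries, and miR-150-5p is lower.

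In VAT/BAT, which asks how the visceral and brown depots differ under the HFD, 4 of the 6 members were higher in VAT, 1 was lower and 1 was not tested. Over all 343 tested miRNAs, 39.4% were called higher and 26.8% lower, with a median log2 difference of 0.40 against 1.83 over the 5 tested members. miR-142-3p and miR-342-5p passed the filter through libraries in which they are high, so the count over tested members is no support for a shared direction. The number of members called was 3 when all 9 libraries were fitted together, 3 with an unmoderated test per miRNA, 1 with no filter, and 3 without BAT 12, BAT 15, VAT 14 or VAT 20. miR-142-5p passed in all 14 alternative settings, with adjusted p from 0.000985 to 0.0361, and miR-342-3p passed in 13 of them.

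In SAT/BAT, the comparison of the subcutaneous with the brown depot, 0 of the 5 tested members passed the test in limma, and 0 had an unadjusted p under 0.05 or passed the unmoderated test. Over all tested miRNAs, 22.4% were called higher and 18.1% lower. miR-142-5p had the largest difference at 3.32 on the log2 scale (95% CI -0.24 to 6.87, adjusted p = 0.116). The difference was 1.06 (95% CI -0.19 to 2.30) for miR-342-3p and 0.18 (95% CI -2.25 to 2.61) for miR-150-5p. These intervals are wide enough to hold large changes in both directions for miR-150-5p, and the missed threshold does not show equal levels. In the fit of all 9 libraries, miR-142-5p was past the threshold with an adjusted p of 0.0296.

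In VAT/SAT, the comparison of the 2 white depots, 1 of the 6 members was called higher, miR-342-5p, and 0 lower, against 8.45% and 7.58% of all tested miRNAs. The log2 difference was 0.70 for miR-142-5p (95% CI -2.42 to 3.81, adjusted p = 0.731), 0.77 for miR-342-3p (95% CI -0.25 to 1.79, adjusted p = 0.227) and -1.59 for miR-150-5p (95% CI -4.20 to 1.02, adjusted p = 0.342). miR-342-5p passed the filter only through the VAT libraries, in which it is high, so this count is no support for a direction. The call of miR-342-5p was lost when any library other than SAT 20 was left out. The 3 comparisons share libraries in pairs and are not independent of each other.

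**Figure D2:**
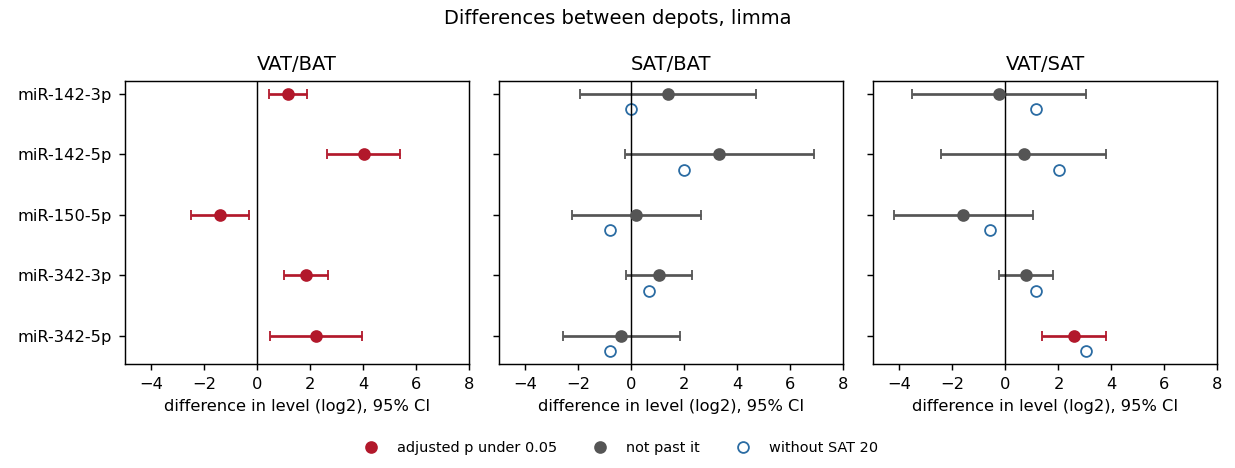
Log2 difference in level between depots (horizontal axes) with its 95% confidence interval from limma for the 5 tested members, in red where the adjusted p was under 0.05, with open circles for the difference without SAT 20. The VAT/BAT intervals all leave out 0, and the intervals of miR-142-5p and miR-150-5p are widest in the comparisons that use SAT.

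SAT 20 was the library that widened the spread within SAT. Its miR-142-5p level before the logarithm was 3767, where SAT 14 and SAT 19 had 235 and 231. For miR-150-5p it was 107626 against 12113 and 14650, which moved the miRNA from place 33 and 29 in those libraries to place 6 of its own. When the 343 tested miRNAs were ordered by how far SAT 20 stood above the higher of the other SAT libraries, the 4 arms of the miR-142 and miR-150 hairpins held places 1 to 4. The gap was 4.18 for miR-142-3p, 4.00 for miR-142-5p, 3.40 for miR-150-3p and 2.88 for miR-150-5p on the log2 scale. For the arms that were at the lowest value in SAT 14 and SAT 19, miR-142-3p and miR-150-3p, the gap is a lower bound. On the scale of the deposited values it is at least 18.1-fold and 10.5-fold. The next miRNAs in that order were miR-130b-5p at 2.21, miR-26b-3p at 2.08 and miR-130b-3p at 2.01, which were chosen after their values were seen. The miR-342 arms came further down, at 1.32 for miR-342-5p and 1.0 for miR-342-3p. Of the 343 miRNAs, 26 were more than 1 above and 7 more than 2 above in SAT 20, compared with 28 and 15 in SAT 14, so SAT 20 did not have more such miRNAs than SAT 14.

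**Figure D3:**
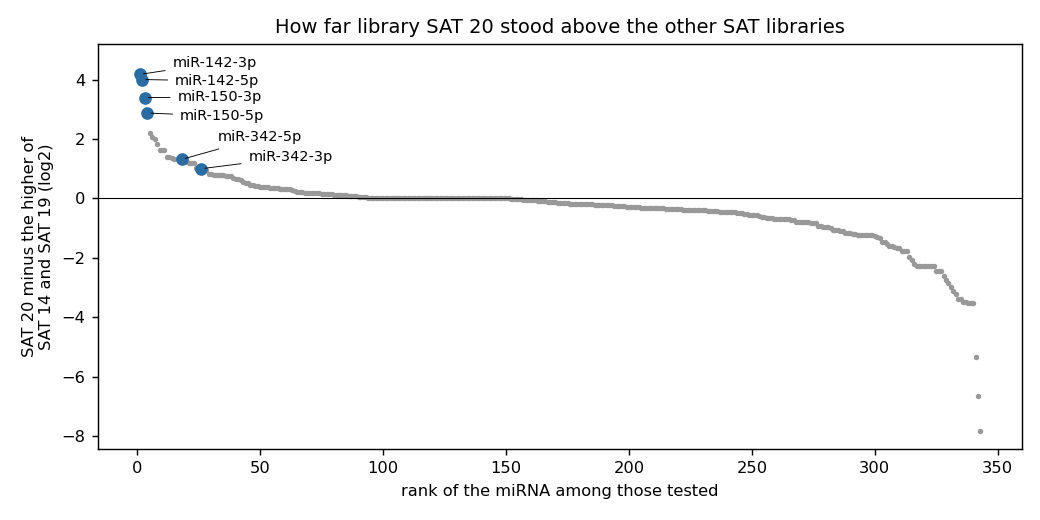
Log2 level in SAT 20 minus the higher of SAT 14 and SAT 19 (vertical axis) for the 343 tested miRNAs in order of that gap (horizontal axis), with members and miR-150-3p as large points. The arms of miR-142 and miR-150 take the first 4 places at 2.88 to 4.18, and the miR-342 arms lie at 1.0 and 1.32.

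The summed levels of the myeloid, other lymphocyte-enriched and red cell lists differed less between SAT 20 and the other SAT libraries than that of the members did, while single miRNAs of these lists varied. The summed unlogged level of 8 myeloid miRNAs was 11057 in SAT 20 against 9637 in SAT 14 and 8307 in SAT 19, with 1 of the 8 at the lowest value in all 9 libraries. That sum is mostly miR-21a-5p, which was 13.09 in SAT 20 and 12.89 and 12.65 in the others on the log2 scale. miR-223-3p, a defining miRNA of neutrophils and monocytes, was 9.0 in SAT 20 and 9.27 and 9.19 in the others. Other myeloid miRNAs were higher in SAT 20: miR-146a-5p was 10.08 against 8.45 and 7.85, a gap of 1.63 that exceeds those of both miR-342 arms, and miR-511-5p was 5.60 against 4.55 and the lowest value, a gap of 1.04. The sum of 9 other lymphocyte-enriched miRNAs was 262015 in SAT 20 against 231147 and 233288, and that of 4 red cell miRNAs was 29764 against 39384 and 39729. These sums are mostly miR-181a-5p and mostly miR-486-5p, and the sum of the members is mostly miR-150-5p. The sums therefore follow 1 abundant miRNA each and do not show how the rest of a list differed. Within the lymphocyte-enriched list, miR-92a-3p, a member of the miR-17 to miR-92a cluster, was 15.87 in SAT 20 and 14.88 in both others, while miR-181a-5p, a regulator of T cell receptor signalling, was 17.58 in all 3. Libraries hold equal values at equal ranks, so an equal value shows the same place by level and need not mean an equal level. The part of the lymph node of the inguinal pad, or of any cell type, in the SAT 20 levels was not tested, and in whole tissue a larger number of cells and more of a miRNA per cell cannot be told apart.

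Without SAT 20, 2 calls appeared and 2 directions turned. miR-142-5p was then higher in VAT than in SAT by 2.03 on the log2 scale (adjusted p = 0.0238 by limma), and miR-150-5p was lower in SAT than in BAT, with a difference of -0.82 (adjusted p = 0.0441 by limma) in place of 0.18. miR-142-3p was then at the lowest value in all remaining SAT and BAT libraries, and its VAT/SAT difference was 1.16 (adjusted p = 0.102) in place of -0.23. miR-342-5p stayed past the threshold in VAT/SAT with a difference of 3.03 and an adjusted p of 0.0271. SAT 20 was singled out for its high levels of these same members, so leaving it out lowers the SAT means for them. The adjusted p-values without SAT 20 therefore describe that choice and are no independent support. In the reduced sets SAT had 2 libraries. Of the 343 tested miRNAs, 12 were called in VAT/SAT and 112 in SAT/BAT, where 55 and 139 were called with all libraries.

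VAT 17 was the highest VAT library for all 5 detected members, by smaller gaps. It exceeded the higher of the other VAT libraries by 1.38 for miR-150-5p, place 2 among the 343 tested miRNAs, and by 1.25 for miR-150-3p, place 4. For miR-142-3p the gap was 0.51, and for miR-142-5p, miR-342-5p and miR-342-3p it was 0.32, 0.25 and 0.22. Without VAT 17, the VAT/BAT difference of miR-150-5p was -1.90.

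In the miR-142 hairpin the 5p arm was the more abundant one in all 9 libraries. The level of miR-142-5p minus that of miR-142-3p was 3.56, 1.34 and 2.78 in BAT on the log2 scale. In SAT this difference was 4.55, 4.53 and 4.38, and the VAT libraries had 5.30, 5.16 and 5.79. The mature arms have 21 and 23 bases, so the levels were not divided by length. In BAT, SAT 14 and SAT 19, miR-142-3p was at the lowest value, so those differences follow miR-142-5p alone and are lower bounds of the true difference. Where both arms were detected, in SAT 20 and the VAT libraries, the difference was 4.38 to 5.79. Since 5 of the 9 values are bounds, they do not show whether the balance of the arms changed with depot. The exact permutation test over libraries (two-sided), which cannot go below 0.1 with 3 against 3 libraries, gave p = 0.1 for each pair of depots, and p = 0.6 for VAT/BAT, p = 0.5 for SAT/BAT and p = 0.8 for VAT/SAT once the lowest value was subtracted.

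In the miR-342 hairpin the 3p arm was the more abundant one in all 9 libraries. The 5p level minus the 3p level was -6.61, -6.97 and -3.44 in BAT. The SAT libraries had -7.33, -6.97 and -7.02, and the VAT libraries -5.17, -5.14 and -5.54. The 5p arm was at the lowest value in BAT 12, BAT 15, SAT 14 and SAT 19, so those differences follow miR-342-3p alone and are bounds. Among the libraries with both arms detected, BAT 20 had the smallest difference and SAT 20 the largest. The exact permutation test (two-sided) gave p = 0.9 for VAT/BAT, p = 0.2 for SAT/BAT and p = 0.1 for VAT/SAT, but with 4 of the 9 values as bounds and a smallest possible p of 0.1 it does not show whether the arms' balance differed between depots.

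The other white blood cell miRNAs of the table followed the members in part. Of 8 myeloid miRNAs, 6 were tested, and the number called higher was 6 for VAT/BAT, 3 for SAT/BAT and 3 for VAT/SAT, with 0 called lower. Over all tested miRNAs, 39.4%, 22.4% and 8.45% were called higher in these comparisons, and 26.8%, 18.1% and 7.58% lower. miR-511-3p was above the lowest value only in VAT, and miR-223-3p and miR-511-5p only in SAT and VAT. These passed the filter through depots in which they are high, so the myeloid count is no support for a shared direction. miR-223-3p was at the lowest value in BAT. Its level was 9.27, 9.19 and 9.0 in the SAT libraries and 10.38, 10.02 and 9.85 in the VAT libraries. miR-21a-5p, which is also abundant in fibroblasts and adipocytes, was 8.65 to 10.29 in BAT and 13.32 to 14.02 in VAT, and miR-146b-5p, an NF-kappaB responsive miRNA, was 6.04 to 7.84 in BAT and 11.10 to 11.70 in VAT. Summed over the unlogged values, the myeloid level was 761 to 1348 in BAT, 8307 to 11057 in SAT and 14171 to 21630 in VAT, and its part in the VAT/BAT differences of the members was not tested. Of 9 other lymphocyte-enriched miRNAs, 6 were tested, with 2 higher and 1 lower in VAT/BAT, 3 higher and 0 lower in SAT/BAT, and 1 higher and 1 lower in VAT/SAT. Among these, miR-19b-3p, called higher in VAT/BAT and SAT/BAT, was at the lowest value in all BAT libraries. Likewise miR-20a-5p, called higher in VAT/SAT, was at the lowest value in all SAT libraries. The one lower in VAT/BAT was miR-92a-3p, with a log2 difference of -1.42, near that of miR-150-5p, and miR-181a-5p had a difference of -0.04.

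**Figure D4:**
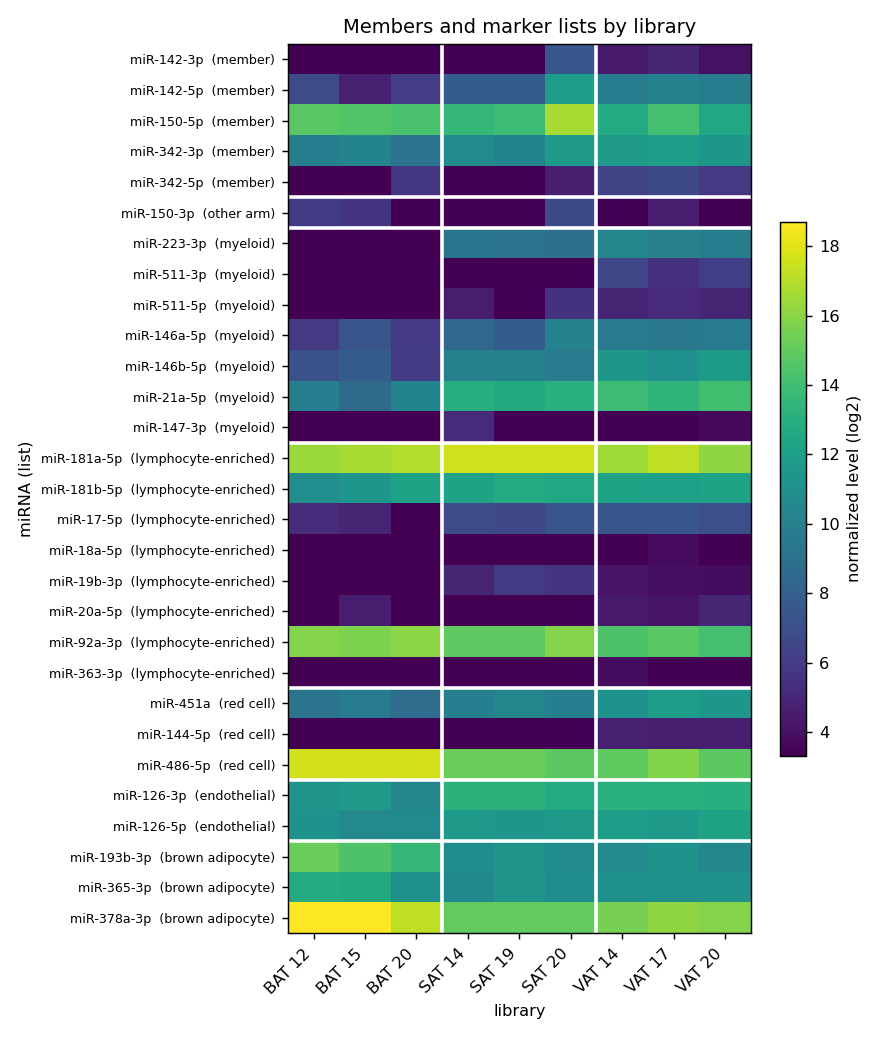
Log2 normalized level (colour scale) of the detected members, of miR-150-3p and of the detected miRNAs of 5 marker lists (rows, with the list in brackets) in the 9 libraries (columns), with white lines between depots and lists. The myeloid miR-223-3p is at the lowest value in all BAT libraries and at 9.0 to 10.38 in SAT and VAT, and SAT 20 stands out for the miR-142 and miR-150 arms.

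Marker miRNAs of other cells in these depots are given for comparison. Over all tested miRNAs, 39.4% were called higher and 26.8% lower for VAT/BAT. The shares were 22.4% and 18.1% for SAT/BAT, and 8.45% and 7.58% for VAT/SAT. Both endothelial arms, miR-126-3p and miR-126-5p, were called higher for VAT/BAT and for SAT/BAT, with miR-126-3p at 10.34 to 11.60 in BAT, 12.74 to 13.18 in SAT and 12.98 to 13.09 in VAT. Of 5 stromal miRNAs, the number called higher was 3 for VAT/BAT, 3 for SAT/BAT and 1 for VAT/SAT, with miR-143-3p at 13.69 to 14.24 in BAT and 16.38 to 16.51 in VAT and miR-145a-5p at 13.09 to 13.74 and 13.09 to 13.94. Of 3 brown adipocyte miRNAs, 2 were lower for VAT/BAT and 2 for SAT/BAT. These were miR-193b-3p (13.56 to 15.16 in BAT, 10.43 to 11.21 in VAT) and miR-378a-3p (17.20 to 18.67 in BAT, 15.56 to 16.18 in VAT), so the BAT libraries were the highest for both. Of 4 red cell miRNAs, 3 were tested, with 2 higher and 1 lower in VAT/BAT, 0 higher and 1 lower in SAT/BAT and 2 higher in VAT/SAT. Among those called higher, miR-144-5p was above the lowest value only in the VAT libraries, so it passed the filter only through the depot where it is high. The abundant miR-486-5p, which muscle also makes, was the one that was lower, at 17.68 in all 3 BAT libraries, and miR-451a was 8.82 to 9.71 in BAT and 11.18 to 11.81 in VAT. The equal miR-486-5p values show the same place by level in these libraries and need not mean equal levels. Of the skeletal muscle list, 3 of 5 were tested and 0 called, with miR-133a-3p at 10.10, 17.20 and 18.67 in BAT and miR-133b-3p at 3.32, 9.59 and 10.82. Of the epithelial list, 2 of 6 were tested and 0 called in any comparison, with miR-205-5p at 14.31 and miR-200b-3p at 8.65 in SAT 14.

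Across the 9 libraries, the members did not share 1 pattern. Pearson's r is a description over libraries of 3 depots that were normalized together, so depot means enter it. miR-142-5p and miR-342-3p gave r = 0.84, and miR-142-5p and miR-150-5p gave 0.11. With the depot means removed, miR-142-5p and miR-150-5p gave 0.85 and miR-142-3p and miR-150-5p gave 0.95, with SAT 20 far above its depot mean in each. The tested miRNAs most like miR-142-5p were miR-350-3p (r = 0.926), miR-511-5p (0.908) and miR-1843a-5p (0.895), and those most like miR-342-3p were miR-146a-5p (0.953), miR-708-3p (0.938) and miR-1843a-5p (0.931). For miR-150-5p they were miR-150-3p (0.834), miR-92a-3p (0.801) and miR-106b-3p (0.788). For miR-142-3p they were miR-29b-1-5p (0.956), miR-187-3p (0.829) and miR-511-5p (0.782), and for miR-342-5p miR-379-3p (0.827), miR-380-3p (0.826) and miR-218-5p (0.823), where many libraries share the lowest value.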

How the data were processed

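Small RNA was sequenced from 3 libraries each of BAT, SAT and VAT of mice on the HFD, and libraries were grouped by their labels. The authors mapped reads to miRBase precursors, kept those on mature miRNAs, shared multiply mapping reads in proportion, normalized to usable reads and added an offset, and named mm 10 as build. The deposited values are log2 normalized levels. Their lowest value is log2 of 10, whereas the methods state an offset of 40 counts. Libraries hold equal values at equal ranks, so a large change in abundant miRNAs can shift others. The aligner version was not given in the sources used here.

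Depots were compared on the deposited log2 values with limma 3.58.1 in R 4.3.3 (two-sided, Benjamini-Hochberg over the 343 tested miRNAs, threshold 0.05), each pair in its own fit, and the code was tested on simulated data. The authors named an unmoderated test per miRNA, which was run as an alternative with other offsets, filters, scalings, fits, a replicate block and single libraries left out. Fold changes of low miRNAs are understated by the offset. Depth is unknown. Arms were compared by exact permutation tests. Locations came from GENCODE M21 and sequences from RefSeq. miRNAs were named by rule: all members and their other arms, the 2 most abundant of each list, miR-223-3p, and the 3 miRNAs most like each member. The members and lists were chosen with earlier results of these data known.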

Additional observations from a re-analysis of the deposited data

How the results depend on the processing

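Some counts and calls moved with the settings, and the causes were not tested beyond the smaller number of libraries or larger number of miRNAs a setting implies. With no filter, called miRNAs fell to 128 in VAT/BAT from 227, to 74 in SAT/BAT from 139 and to 4 in VAT/SAT from 55. VAT/SAT had 2 calls relative to miR-191-5p, 30 in the fit of all 9 libraries and 13 with the unmoderated test. Members called in VAT/BAT were 5, and 1 with no filter, 3 in the fit of all 9 libraries and 3 unmoderated. In SAT/BAT they were 0, and 1 in the fit of all 9 libraries. In VAT/SAT they were 1, and 0 with the lowest value subtracted, with no filter, in the fit of all 9 libraries and unmoderated. Leaving out 1 library gave 187 to 236 calls in VAT/BAT, 112 to 142 in SAT/BAT and 0 to 49 in VAT/SAT, with 0 without SAT 19, 5 without VAT 20 and 23 without VAT 14. Members called ranged from 3 to 4, 0 to 1 and 0 to 2.

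Directions reversed for SAT/BAT miR-342-5p (0.44 without BAT 20, range over single libraries left out -0.81 to 0.44), SAT/BAT miR-150-5p (-0.82 without SAT 20, range to 0.75), and VAT/SAT miR-142-3p (1.20 with the lowest value subtracted, 1.16 without SAT 20, range from -0.93). With the lowest value subtracted, the miR-142 arm difference was 0.64 in VAT/BAT, 1.12 in SAT/BAT and -0.48 in VAT/SAT, against 2.86, 1.93 and 0.93. Leaving out 1 library, the arm differences ranged from 2.25 to 3.36, 1.32 to 2.43 and 0.74 to 1.06 for miR-142 (VAT/BAT, SAT/BAT, VAT/SAT), and from -0.26 to 1.5 (-0.08 without BAT 12), -2.08 to -0.32 and 1.71 to 1.95 for miR-342.

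Library numbers recur between depots, but nothing says that a number is a mouse, and deviations of same-numbered libraries correlated at -0.14 to 0.27. A replicate block left VAT/SAT at 55 calls and 1 member. In the fit of all 9 libraries, the replicate block gave 223 calls and 3 members in VAT/BAT, and 183 calls and 1 member in SAT/BAT. The miRNAs at the lowest value limit the miR-142-3p, miR-342-5p and miR-155 results.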

Other observations

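The gap between miR-150-5p and miR-142-5p within single libraries separated the depots, a comparison chosen after the values were seen and given with no test. The log2 level of miR-150-5p minus that of miR-142-5p was 7.86, 9.86 and 8.20 in BAT. The SAT libraries had 5.69, 5.99 and 4.84, and the VAT libraries 2.97, 3.98 and 2.70. The depots did not overlap, and SAT 20 lay with the other SAT libraries in this difference although both levels were far higher in it. How many other pairs of miRNAs separate the depots was not counted. miR-142-5p alone already separated BAT from SAT and VAT, and 39.4% of tested miRNAs were called higher and 26.8% lower in VAT/BAT. What the difference says about cell types was not tested. The means were 8.64 ± 1.07, 5.5 ± 0.60 and 3.22 ± 0.68 (SD, n = 3 each).

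Within miR-150, the 5p level exceeded the 3p level by 8.67 in BAT 12, 8.91 in BAT 15, 9.54 in VAT 17 and 9.997 in SAT 20, the 4 libraries with both arms detected.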
